A study of Brassica napus and Camelina sativa and Thlaspi arvense with 24 samples.

Results

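The leaf-restricted genes of *Camelina sativa* were 20 of the 88876 genes listed for the line DH55. They were chosen by their TPM (a gene's share of all transcripts in a library, scaled to a fixed total) in these same tissues, as genes with at least 3 TPM in all 3 leaf libraries and below 1 TPM in all 3 cotyledon libraries. Of the 23100 genes with at least 3 TPM in all 3 leaf libraries, 0.0866% were below 1 TPM in all 3 cotyledon libraries. The reverse rule, with at least 3 TPM in all 3 cotyledon libraries and below 1 TPM in all 3 leaf libraries, took 96 of 26095 genes, or 0.368%.

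RNA was sequenced from cotyledons and first true leaves of untreated seedlings, grown in a chamber for up to 2 weeks after germination, in *C. sativa* DH55, *B. napus* DH12075, *B. napus* N99 and a field-collected line of pennycress (*Thlaspi arvense*). Each line and tissue had 3 biological replicates, 24 libraries in all, and the study set out to compare the metabolic and expression profiles of these oilseeds. Reads of N99 were quantified against DH12075 transcripts, so an N99 transcript that differs from them can be listed too low. A lower TPM can come from fewer cells of a type or from less RNA per cell, and these cannot be told apart in whole organs.

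Cotyledons are formed in the embryo, store reserves in the seed and turn green after germination, while true leaves are made by the shoot apical meristem of the seedling. Growing leaves enlarge by loosening and rebuilding the cell wall, a network of cellulose and xyloglucan. *C. sativa* is a hexaploid with 3 subgenomes, so most *A. thaliana* genes have several near-identical copies in it, and reads of such copies can be split between them during quantification.

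The TPM hold no read numbers, so the depth of the libraries is unknown and only the spread between replicates measures precision. In the DH55 libraries, 39646 to 42436 genes had at least 1 TPM, and replicates of a tissue correlated with one another at 0.959 to 0.980 (Pearson, log2(TPM + 1)). Leaf replicates 1 and 2 correlated at 0.980, and leaf replicate 3 correlated less with them, at 0.962 and 0.959. The 10 top genes took 37.1% of the total in cotyledon replicate 2 of N99, which lowers its other values, against 7.58% to 13.5% in the other 23 libraries. The tissues of DH55 were checked with genes of lists taken from the start of *A. thaliana* chromosome 1. All 24 copies of 8 photosynthesis genes, such as PSBP1 of photosystem II and LHCB6 of its antenna, were higher in leaf (limma, adjusted p under 0.05, log2 fold changes 0.31 to 1.02), where 7.97% of the 41797 genes tested were higher and 29.5% lower. Their summed level was 20569 to 22717 TPM in cotyledons and 29995 to 32297 TPM in leaves. After quantile normalization 13 of the 24 were still called, and 12 without replicate 2 and 15 without replicate 1 of both tissues. Of all genes tested, 13.8%, 1.83% and 4.6% were higher in leaf in these settings. Under quantile normalization the median log2 fold change of all genes moved from -0.19 to 0.01, and the share of called genes that were higher in leaf moved from 21.3% to 50.4%. Among the 8 seed storage, embryo and root genes, only LEC2 and RCI3 could be paired, at 0.265 to 0.508 TPM and 0.505 to 0.862 TPM in cotyledons and at 0.145 to 0.322 TPM and 0.969 to 1.51 TPM in leaves. The seed storage genes CRB and CRD, the embryo regulator LEC1 and the root hair expansin gene EXPA7 were listed at 0 in all 6 libraries, and LRX1 and NRT2.1 were above 0 in fewer than 3.

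The leaf-restricted genes were expressed at low to moderate levels. Their mean leaf TPM ran from 3.46 to 28.2 with a median of 6.16, and 5 of the 20 lay above 9.54 TPM, the median of all genes with at least 3 TPM in every leaf library. Summed over the 20, the TPM were 8.29, 9.44 and 5.85 in cotyledon replicates 1, 2 and 3 and 161.5, 232.4 and 152.0 in leaf replicates 1, 2 and 3. Since these values chose the genes, their levels and folds are given as a description without a test.

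**Figure D1:**
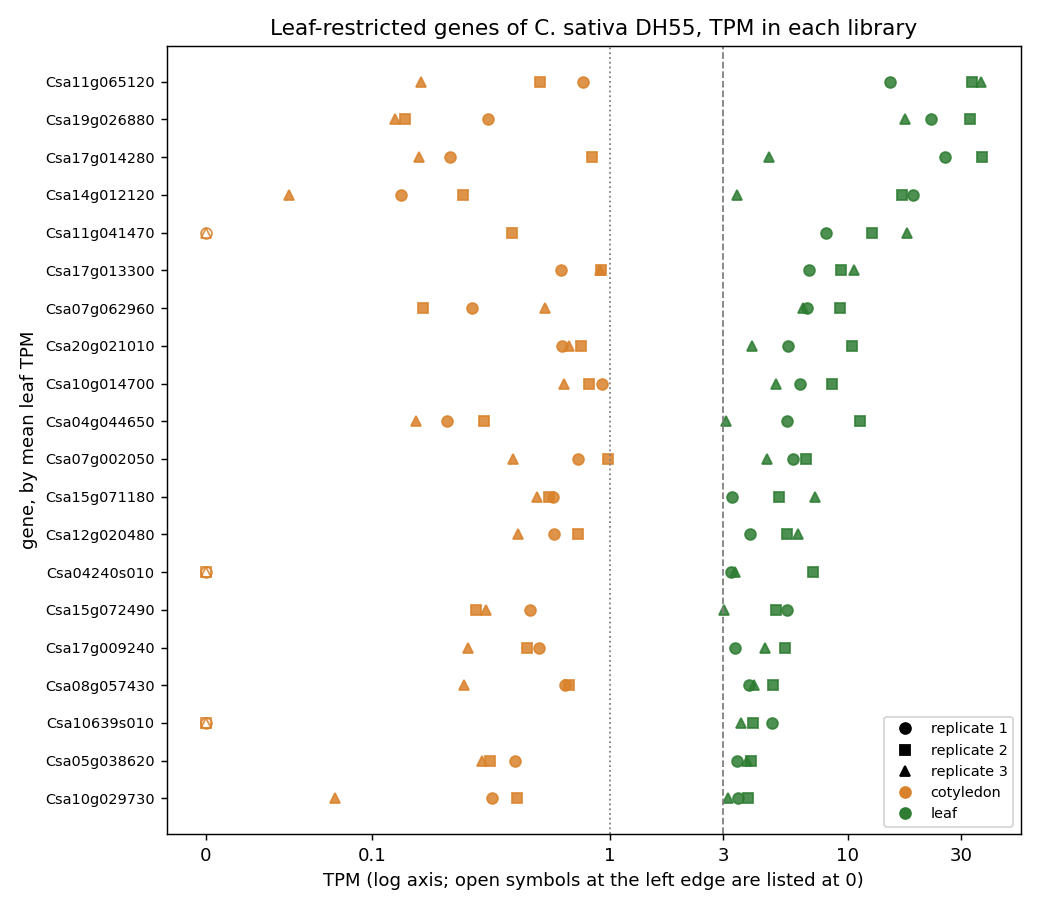
TPM of each of the 20 leaf-restricted genes of DH55 in 3 cotyledon (orange) and 3 leaf (green) libraries on a log axis, with symbols for the replicates and lines at the thresholds of 1 and 3 TPM. The 5 genes at the top exceed a mean of 10 TPM in leaf, 2 genes are listed at 0 in all 3 cotyledon libraries, and many of the others lie close to a threshold.

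Csa11g065120 on chromosome 11, the 4107th of 6907 listed IDs there, had the highest leaf level. It was at 0.770, 0.510 and 0.161 TPM in the cotyledon libraries and at 15, 33.3 and 36.3 TPM in the leaf libraries. Its ratio of means was 58.8, and every leaf library lay far above every cotyledon library. Csa19g026880 on chromosome 19 was at 0.307, 0.137 and 0.125 TPM in cotyledons and at 22.4, 32.5 and 17.4 TPM in leaves. The ratio of its means, 127, was the largest of the 18 genes with a value above 0 in a cotyledon library. Csa11g041470, the other gene on chromosome 11, was listed at 0 in cotyledon replicates 1 and 3 and at 0.387 TPM in replicate 2, against 8.14, 12.7 and 17.7 TPM in leaves.

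A pair of genes, Csa17g014280 on chromosome 17 and Csa14g012120 on chromosome 14, were paired with the same *A. thaliana* gene, AT1G10550. This gene is XTH33, a xyloglucan endotransglucosylase/hydrolase, an enzyme family that cuts and rejoins the xyloglucan chains of the cell wall. Csa17g014280 was at 0.213, 0.842 and 0.157 TPM in cotyledons and at 25.5, 36.6 and 4.66 TPM in leaves. Csa14g012120 was at 0.132, 0.240 and 0.0446 TPM in cotyledons and at 18.7, 16.98 and 3.41 TPM in leaves. Both were far lower in leaf replicate 3 than in the other leaf libraries, and both stayed above every cotyledon library there.

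Csa17g013300 was paired with AT1G09750, which is AED3, an aspartyl protease-like protein of the apoplast. It stood at 0.625, 0.920 and 0.908 TPM in cotyledons and at 6.84, 9.35 and 10.6 TPM in leaves, 10.9 times higher by the means. Csa17g009240, paired with AT1G05835, was at 0.505, 0.449 and 0.254 TPM in cotyledons and at 3.37, 5.42 and 4.49 TPM in leaves, 10.99 times higher. The other 16 genes were not paired and are given by their IDs. The pairing used 1938 *A. thaliana* genes from the start of chromosome 1 only, 1745 of them above 0 in at least 3 DH55 libraries.

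Next by leaf level, Csa07g062960 was at 0.164 to 0.533 TPM in cotyledons and 6.51 to 9.24 TPM in leaves. Csa20g021010 ran from 0.628 to 0.754 TPM in cotyledons and from 3.95 to 10.4 TPM in leaves, and Csa10g014700 from 0.639 to 0.929 TPM and from 5.01 to 8.57 TPM. Csa04g044650 was at 0.206, 0.296 and 0.154 TPM in cotyledons and at 5.53, 11.2 and 3.08 TPM in leaves, a ratio of means of 30.3. The 7 genes outside the naming rule are given so that every gene is accounted for, after their values were seen, and 5 of them are on chromosomes. Csa07g002050 (mean leaf 5.71 TPM), Csa15g071180 (5.22), Csa12g020480 (5.19), Csa08g057430 (4.24) and Csa05g038620 (3.69) had leaf means 8.14 to 11.1 times their cotyledon means.

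The other 2, on unplaced scaffolds, were the only ones listed at 0 in all 3 cotyledon libraries. Csa04240s010 was at 3.23, 7.15 and 3.35 TPM in leaves. Csa10639s010 was at 4.82, 4.01 and 3.57 TPM in leaves. Each is the sole ID listed for its scaffold, and no fold is given against values of 0.

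Several genes sat close to the thresholds. The lowest leaf values inside the rule were 3.01 TPM for Csa15g072490, 3.08 TPM for Csa04g044650 and 3.13 TPM for Csa10g029730. In cotyledons the highest values inside it were 0.977 TPM for Csa07g002050, 0.929 TPM for Csa10g014700 and 0.920 TPM for Csa17g013300. Just outside were Csa02g070500, at 4.46, 9.80 and 5.32 TPM in leaves but at 1.04 TPM in cotyledon replicate 3, and Csa01g032650, at 4.18 to 6.34 TPM in leaves but at 1.04 TPM in cotyledon replicate 2. Csa16g035090 missed through leaf replicates 2 and 3, both at 2.89 or 2.88 TPM, with cotyledon values of 0 to 0.842 TPM. With the rule applied to the means of the tissues in place of every library, 97 genes were taken, which hold the 20 by definition.

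When the rule was applied to 2 replicate numbers only, the share of the chosen genes that also met it in the number left out was 20 of 41 (48.8%) for replicate 1, 20 of 28 (71.4%) for replicate 2 and 20 of 62 (32.3%) for replicate 3. The 20 are by definition the leaf-restricted genes, so only the number chosen on 2 replicates can differ. Over all listed genes, 0.172%, 0.236% and 0.219% met the rule in those replicates alone. As 47.7% of all listed genes were below 1 TPM in all 6 libraries, they are not matched in level to the chosen genes. In replicate 3, 39 of the 62 genes fell below 3 TPM in leaf.

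The leaf-restricted genes varied more between leaf libraries than other genes did. Their coefficient of variation over the 3 leaf libraries had a median of 28.3% and ran from 6.73% for Csa05g038620 to 72.8% for Csa17g014280. In 18119 genes with at least 3 TPM in every leaf library and a mean in the same range, the median was 10.8%. Among the 5 genes that averaged 10 TPM or more, the largest values were those of the XTH33 copies, 72.8% and 64.3%, and the smallest those of Csa19g026880, 32.03%, and Csa11g041470, 37.4%. The highest leaf library was 7.85 times the lowest for Csa17g014280, and 8 of the 20 genes differed at least 2-fold between leaf libraries. The 18119 genes share the range of means only and were not matched in level to the 20, whose median lay at the 30.7th percentile of leaf genes. As the leaf threshold holds for each library, these spreads are a description.

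**Figure D2:**
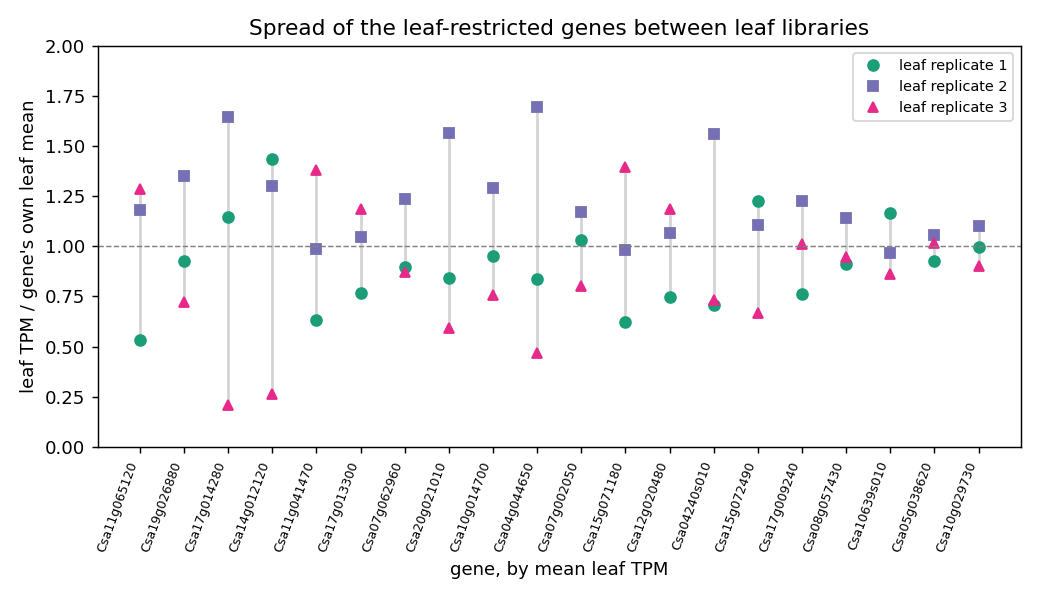
Leaf TPM of each of the 20 genes in leaf replicates 1, 2 and 3, divided by the gene's own leaf mean and ordered by that mean. Replicate 2 is the highest library for 12 genes and the lowest for none, and the XTH33 copies Csa17g014280 and Csa14g012120 fall furthest in replicate 3.

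Replicate 2 was the highest leaf library for 12 of the 20 genes, replicate 3 for 5 and replicate 1 for 3. Among all genes with at least 3 TPM in every leaf library these shares were 30.2%, 36.4% and 33.4%. The lowest library was replicate 3 for 11 genes and replicate 1 for 9. Leaf libraries also differed in a list of 7 genes of jasmonate, the hormone of wounding, whose summed level was 380.7, 231.1 and 97.3 TPM in leaf replicates 1, 2 and 3 and 192.2, 138.3 and 267.4 TPM in the cotyledon replicates. This sum was lowest in leaf replicate 3, as were 11 of the 20 leaf-restricted genes, and highest in leaf replicate 1, as were 3 of the 20. Its part in their spread was not tested.

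By position, 18 of the 20 genes lay on chromosomes and 2 on scaffolds. They fell on 12 of the 20 chromosomes, with 3 on chromosome 17, 2 each on chromosomes 7, 10, 11 and 15, and 1 each on chromosomes 4, 5, 8, 12, 14, 19 and 20. By the field's assignment of chromosomes to subgenomes, 8 genes were in subgenome 1, 2 in subgenome 2 and 8 in subgenome 3. Of the genes with at least 3 TPM in every leaf library, 31.9%, 31.97% and 33.9% were in these subgenomes, and of the 96 cotyledon-restricted genes 33, 32 and 30. These counts carry no test.

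**Figure D3:**
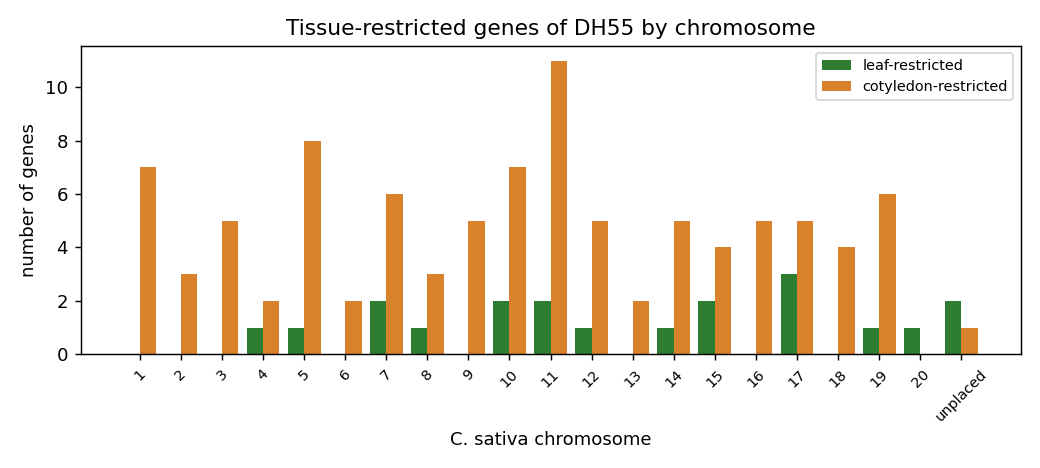
Number of leaf-restricted (green) and cotyledon-restricted (orange) genes of DH55 on each of the 20 chromosomes of *C. sativa* and on unplaced scaffolds. Leaf-restricted genes reach 3 on chromosome 17 and are missing from 8 chromosomes, while chromosome 11 holds the most cotyledon-restricted genes, 11.

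No leaf-restricted gene had another within 5 places in the list of IDs. The closest pair, Csa17g013300 and Csa17g014280, was 97 listed IDs apart. Of the 180 IDs within 5 places of the 18 genes on chromosomes, 82 (45.6%) were below 1 TPM in all 6 libraries, against 47.0% of all IDs on chromosomes. The 92 neighbours that averaged 1 TPM or more in a tissue had a median difference of -0.15 between leaf and cotyledon on the log2(TPM + 1) scale. Of the 85 that were tested, 10 were higher and 20 lower in leaf (limma, adjusted p under 0.05), beside 7.97% and 29.5% of all genes tested.

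A difference of at least 1 on the log2(TPM + 1) scale was found in 7 neighbours, all named after their values were seen. The share of all DH55 genes with such a difference was not counted, so the 7 are a description. In leaf, 4 of them were higher. Csa08g057450, next but one to Csa08g057430, was at 0.249, 0.399 and 0.291 TPM in cotyledons and at 2.78, 5.13 and 1.57 TPM in leaves, and so missed the leaf threshold in 2 libraries. Csa04g044600, 5 places from Csa04g044650, had means of 1.08 and 4.67 TPM in cotyledon and leaf. Csa15g072460 had means of 1.19 and 3.99 TPM, and Csa05g038640 of 26.2 and 66.5 TPM. The 3 others were higher in cotyledon. The sharpest was Csa15g071160, next but one to Csa15g071180, at 33.3, 36.2 and 37.1 TPM in cotyledons and at 2.17, 0.685 and 1.47 TPM in leaves. Csa17g009280 had means of 13.1 TPM in cotyledon and 3.40 TPM in leaf, and Csa11g041480, the ID after Csa11g041470, of 3.92 and 1.40 TPM.

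**Figure D4:**
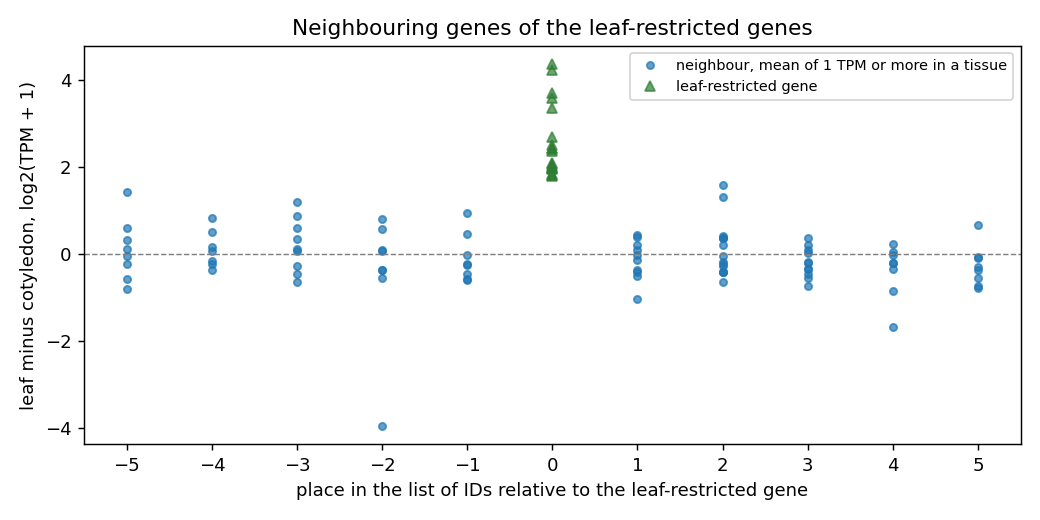
Difference between leaf and cotyledon on the log2(TPM + 1) scale of the IDs within 5 places of a leaf-restricted gene (blue, averaging 1 TPM or more in a tissue) and of the leaf-restricted genes themselves (green). Neighbours centre near 0, with a median of -0.15, and Csa15g071160, 2 places before Csa15g071180, is the point near -3.95.

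The other DH55 copies of the paired genes were also higher in leaf in each library. The third XTH33 copy, Csa03g014080, was at 0.114, 0.787 and 0.0447 TPM in cotyledons and at 6.38, 14.2 and 0.961 TPM in leaves. It missed the rule only through leaf replicate 3, the library in which its sister copies were low as well. Summed over the 3 copies, XTH33 reached 50.6, 67.8 and 9.03 TPM in leaves against 0.459, 1.87 and 0.247 TPM in cotyledons. For AED3, Csa03g013090 was at 1.37, 0.903 and 0.815 TPM in cotyledons and at 3.84, 4.56 and 6.59 TPM in leaves, and Csa14g011180 at 0.582, 1.01 and 0.855 TPM and at 1.86, 2.35 and 2.25 TPM. Csa17g013300 made up 55.6% of the summed leaf level of the 3 AED3 copies. The other copy of AT1G05835, Csa14g007200, was at 0 to 0.309 TPM in cotyledons and 1.32 to 1.76 TPM in leaves. As copies can share reads, these values are not independent of those of the leaf-restricted genes and carry no test.

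Counterparts in the other lines, which the rule did not use, asked whether the same *A. thaliana* genes differed between leaf and cotyledon elsewhere. They were paired by the fit of their values alone, without a requirement on position, so these pairs are less certain. In DH12075, 4 of the 5 copies tested were higher in leaf (limma, adjusted p under 0.05), where 20.8% of the 41199 genes tested were higher and 29.5% lower. The 4 were the 2 copies each of AT1G05835 and AED3. In N99, 2 of 4 tested copies were higher in leaf, both of AED3, beside 17.2% of 41254 genes higher and 12.2% lower. As copies of a gene can share reads, they are not independent counts. Pennycress had 1 of 2 tested genes higher in leaf, beside 15.6% of 14617 genes higher and 20.6% lower. By limma 0 counterparts were called lower in leaf, and an unadjusted p under 0.05 in that direction was found for 1 in DH12075 and 0 in N99 and pennycress. Of the calls in N99, 58.4% were higher in leaf, and 46.1% after rescaling with the top 10 genes left out, which moved the median log2 fold change of all genes from 0.04 to -0.06.

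Both AT1G05835 copies of DH12075 were close to leaf-restricted. BnaA08g037090.3DH was at 0.0585, 0.182 and 0.0911 TPM in cotyledons and at 8.35, 5.32 and 2.47 TPM in leaves. Its log2 fold change was 2.41 ± 0.33 (SE, n = 3 and 3; limma, adjusted p = 0.00104). BnaC08g002590.3DH was at 0.109, 0.169 and 0.170 TPM in cotyledons and at 7.85, 3.49 and 1.48 TPM in leaves, a log2 fold change of 2.01 ± 0.41 (SE, n = 3 and 3; limma, adjusted p = 0.00602, and 0.0526 without replicate 2). Their sum rose 37.1-fold from cotyledon to leaf by the means, and the groups did not overlap for either copy. In N99 the same IDs were listed between 0 and 0.649 TPM in all 6 libraries and were too low to be tested. Pennycress CAH2038810 was at 0.963, 0.0895 and 0.341 TPM in cotyledons and at 2.08, 2.32 and 0.770 TPM in leaves. Those groups overlapped and the difference was not called (log2 fold change 0.89 ± 0.32, SE, n = 3 and 3; limma, adjusted p = 0.0692).

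The AED3 copies of DH12075 were higher in leaf, and both were above 4 TPM in every cotyledon library. BnaA08g035130.3DH of DH12075 was at 4.85, 5.48 and 6.22 TPM in cotyledons and at 20.9, 28.0 and 13.2 TPM in leaves, with a log2 fold change of 1.68 ± 0.25 (SE, n = 3 and 3; limma, adjusted p = 0.00153). BnaC08g026170.3DH was at 4.04, 4.45 and 4.46 TPM in cotyledons and at 12.7, 19.2 and 7.11 TPM in leaves, with a log2 fold change of 1.301 ± 0.30 (SE, n = 3 and 3; limma, adjusted p = 0.0100, and 0.0940 without replicate 1). The leaf level of both was lowest in replicate 3, and no leaf library overlapped a cotyledon library.

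In N99, BnaC08g026170.3DH was at 3.78, 2.17 and 3.49 TPM in cotyledons and at 6.83, 13.1 and 7.59 TPM in leaves. Its log2 fold change was 1.27 ± 0.27 (SE, n = 3 and 3; limma, adjusted p = 0.00108, and 0.0569 without replicate 2). BnaA08g035130.3DH was at 1.47, 0.660 and 1.38 TPM in cotyledons and at 1.62, 4.90 and 2.49 TPM in leaves, with a log2 fold change of 0.82 ± 0.27 (SE, n = 3 and 3; limma, adjusted p = 0.0240). That call was lost without replicate 2 (adjusted p = 0.351) and without cotyledon replicate 2 alone (adjusted p = 0.189), after quantile normalization (0.0537), after rescaling (0.0701) and with no filter on low values (0.154). In the last 3 of these settings the log2 fold change stayed at 0.80 to 0.82. Without cotyledon replicate 2, the library in which 10 genes took 37.1% of the total, it was 0.64. Summed over both copies, the leaf mean was 2.82 times the cotyledon mean in N99, 3.43 times in DH12075 and 6.05 times over the 3 copies of DH55. The DH55 ratio includes Csa17g013300, which the rule chose for this difference, so it can be raised by that choice. Whether these ratios differ between lines was not tested. No pennycress gene could be paired with AED3 by its values, which does not mean that pennycress lacks the gene.

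The XTH33 copies of *B. napus* were not called higher in leaf. BnaA08g034610.3DH of DH12075 was at 2.86, 8.46 and 2.22 TPM in cotyledons and at 0.502, 2.61 and 0.428 TPM in leaves. The means point to cotyledon, but the groups overlapped and the difference was not called (log2 fold change -1.31 ± 0.49, SE, n = 3 and 3; limma, adjusted p = 0.0620). Without replicate 2, in which both tissues were high, the copy was called lower in leaf (limma, adjusted p = 0.00800). BnaC08g026930.3DH was below 2 TPM in all 6 libraries of DH12075 and was not tested. In N99 that copy was the more expressed, at 9.99, 8.04 and 2.35 TPM in cotyledons and at 4.81, 4.06 and 4.13 TPM in leaves (log2 fold change -0.38 ± 0.32, SE, n = 3 and 3; limma, adjusted p = 0.418). BnaA08g034610.3DH of N99, at 2.24, 1.76 and 0.335 TPM in cotyledons and 0.528 to 0.691 TPM in leaves, was not called either (log2 fold change -0.49 ± 0.27, SE, n = 3 and 3; limma, adjusted p = 0.182). Both N99 copies overlapped between tissues through cotyledon replicate 3, and without replicate 3 both were called lower in leaf (limma, adjusted p = 0.0177 and 0.0353).

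In pennycress, XTH33 was higher in leaf. CAH2038368 was at 2.50, 2.62 and 2.47 TPM in cotyledons and at 11.7, 9.89 and 9.80 TPM in leaves, with a ratio of the means of 4.14. The replicates of each tissue lay close together and apart from those of the other tissue, and the log2 fold change was 1.70 ± 0.11 (SE, n = 3 and 3; limma, adjusted p = 4.26e-04). Summed over copies, the ratio of leaf to cotyledon means was 49.5 in DH55, 4.14 in pennycress, 0.366 in DH12075 and 0.602 in N99. The DH55 ratio includes Csa17g014280 and Csa14g012120, which the rule chose for this difference, so it can be raised by that choice. A test of the difference between lines was not run, since each line has its own table.

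**Figure D5:**
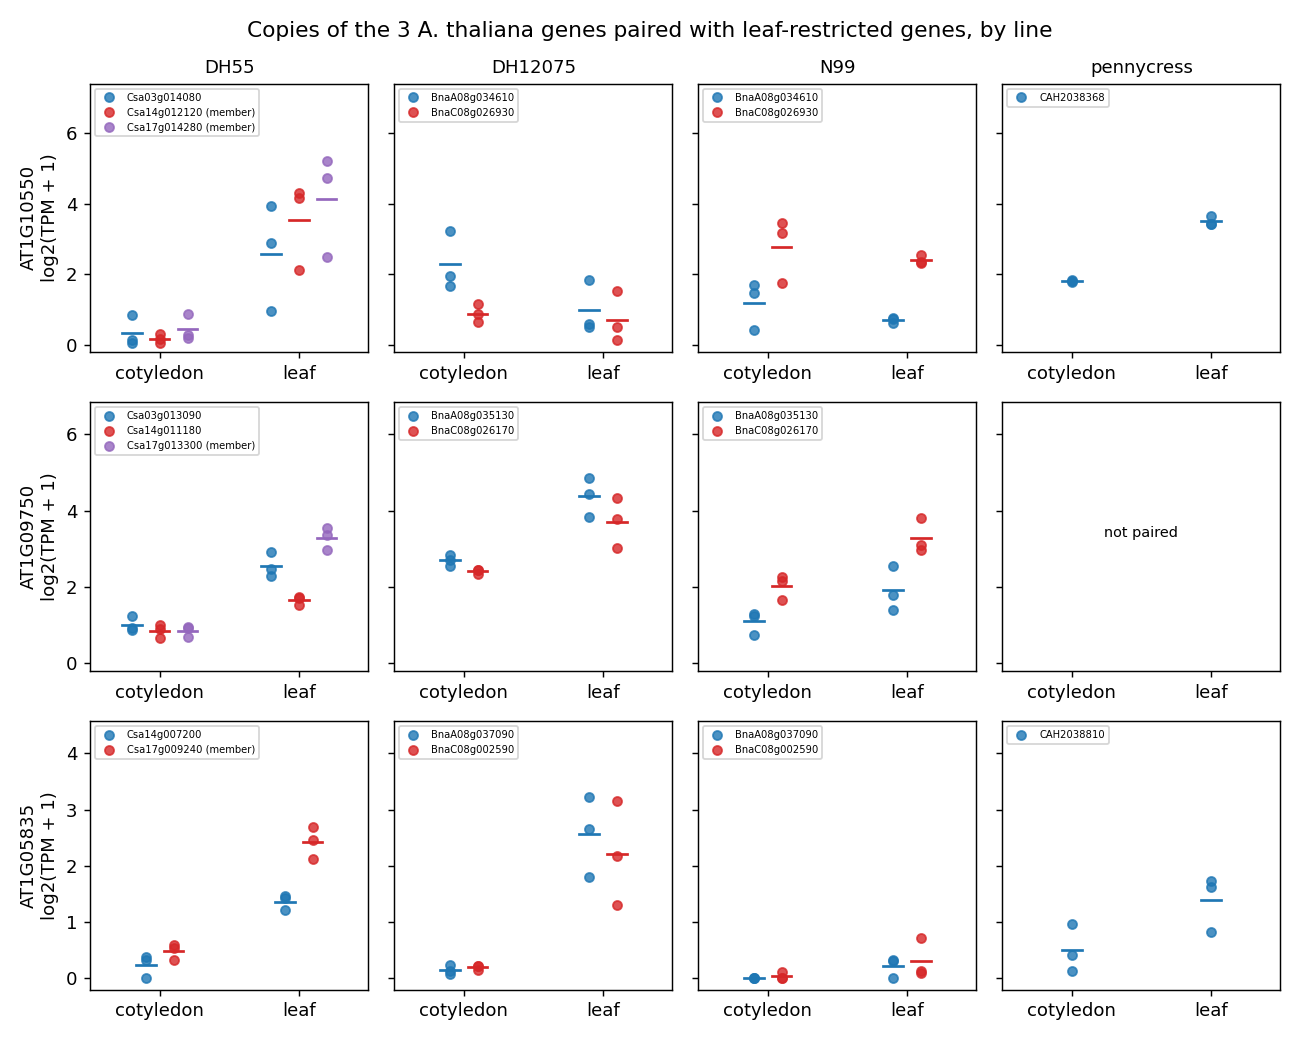
log2(TPM + 1) of each copy of XTH33 (AT1G10550), AED3 (AT1G09750) and AT1G05835 in cotyledons and leaves of DH55, DH12075, N99 and pennycress, with 1 point per library and a bar at the mean of the log2 values. XTH33 is higher in leaf in DH55 and pennycress but not in DH12075 and N99, and AT1G05835 is near 0 in every N99 library.

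Of 8 other genes of leaf and shoot development 6 could be paired, and none of their copies was leaf-restricted. Of 13 copies tested in DH55, 7 were lower in leaf and 0 higher (limma, adjusted p under 0.05), beside 29.5% and 7.97% of all genes tested. With all libraries and no other scaling, 0 of the 13 reached an unadjusted p under 0.05 toward leaf. Under the alternatives the number lower was 3 after quantile normalization, where 13.6% of all genes tested were lower. It was 4 without replicate 1, 2 without replicate 2 and 4 without replicate 3. In these 3 settings 14.8%, 8.15% and 16.5% of all genes tested were lower. The 7 were all 3 copies of TEM1, a repressor of flowering, and 2 copies each of its relative RAV1 and of the growth coactivator GIF2. TEM1 summed to 79.1 to 90.5 TPM in cotyledons and 34.0 to 45.3 TPM in leaves. None of the list genes that could be paired with IDs was leaf-restricted. By limma the jasmonate list had 0 calls among 15 tested copies, beside 37.4% of all genes tested, and 0 at an unadjusted p under 0.05. In that list 1 copy was called higher in leaf after quantile normalization and 3 without replicate 3. Of all genes tested, 13.8% and 5.7% were called higher in these settings. The 3 genes of glucosinolate synthesis were listed at 0 or had copies below the filter.

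By the same rule, 131 genes were leaf-restricted in DH12075, 45 in N99 and 54 in pennycress, which is 0.565%, 0.188% and 0.448% of the genes with at least 3 TPM in every leaf library of that line. None of the paired counterparts was among them. The lowest of these shares, 0.0866%, was that of DH55, and no test was made between lines. In DH55 the number was 32 after quantile normalization and 28 to 62 with 1 replicate number left out. The other lines and the reverse rule were not recounted in these settings.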

How the data were processed

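The members, gene lists and tests were chosen with earlier results of these data known. Per the study's methods and labels, reads were trimmed by the authors (Trimmomatic 0.32), assigned to transcripts of each species by Salmon 1.10.0 and summarised per gene by tximport. The authors deposited TPM per gene and library, not log-transformed, with 1 table per line. The methods name a stranded mRNA kit for the libraries, whereas the labels name TruSeq.

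Leaf was compared with cotyledon within each line by limma 3.58.1 (R 4.3.3; lmFit and eBayes with trend, two-sided) on log2(TPM + 1), for genes averaging 1 TPM or more over the 6 libraries, with Benjamini-Hochberg adjustment over all genes tested and a threshold of 0.05. The added 1 TPM makes folds of low genes smaller. DESeq2, which the authors applied, works on counts and was not used here. limma was tested on simulated data. Other steps used Python 3.11.15, numpy 2.4.6, pandas 2.3.3, scipy 1.17.1 and matplotlib 3.10.9.

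The IDs are not named in the tables. *A. thaliana* genes were paired with IDs through the study's ortholog table, used only for this. For leaf-restricted genes, its values had to equal a weighted sum of TPM over at most 3 collinear DH55 IDs, within 60 listed IDs. The weights stand for lengths, which were not known, and any positive values that fitted were accepted. A set of 3 IDs thus had 3 free weights for the values of 6 libraries. Here 1938 of the ortholog genes were used. All 200 simulated sums were traced back, which tests recovery and not false pairs. In these simulations the true member was given to the search. Its partners were above 0 in every library and averaged more than 1 TPM, which not every real copy does. With libraries shuffled, searched for the 4 paired members only, 0 genes were paired, and 3 fits were found when collinearity was not required. In true order, 12 genes fitted a set with any of the 20 members without that requirement. A fit of values alone therefore does not settle a pair. Pairs of leaf-restricted genes rest on collinearity as well. Counterparts in DH12075 and pennycress were paired by the fit of values alone, and N99 took the IDs of DH12075. For list genes collinearity was not required of every ID. DH55 IDs found in the reference gene table numbered 0, so no sequence or coordinate is given. Order and chromosome come from the IDs. Named genes are the paired members and their counterparts, the 10 highest in leaf, those nearest the leaf threshold, the nearest misses, those with extreme variation above 10 TPM, and genes of the lists past the test. Seed, embryo and root genes are named only to check the tissues, and members nearest the cotyledon threshold are added.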

Additional observations from a re-analysis of the deposited data

How the results depend on the processing

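The number of leaf-restricted genes depended on the thresholds. It was 59 with a leaf threshold of 2 TPM and 6 with 5 TPM, 9 with a cotyledon threshold of 0.5 TPM and 2 with 0 TPM in all 3 cotyledon libraries, 32 after quantile normalization, 97 by group means, 28 to 62 with 1 replicate number left out, and 23 after rescaling without the 10 most abundant genes, of which 18 were among the 20. All 20 were kept by quantile normalization. At 2 TPM, by group means and with a replicate left out they are kept by definition. The count of adjacent pairs stayed at 0 within 2 and 5 places and among expressed IDs. Members paired with an *A. thaliana* gene fell from 4 to 1 with at most 2 IDs per gene. The spread between leaf libraries was 2.61 times that of genes in the same range by the coefficient of variation and 2.60 times by the SD of log2(TPM + 1).

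Genes called between tissues, with each replicate left out, numbered 4183 to 9266 in DH55 (15640 with all), 10455 to 22098 in DH12075 (20752), 2732 to 10901 in N99 (12129) and 1747 to 3466 in pennycress (5283), and 3300 in pennycress with the replicate number as a block. Same-numbered samples share only a number (correlations of their deviations -0.37 to 0.19), and in no line did every sample correlate best with its own number. The replicate block changed the call of 1 counterpart.

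In DH12075, 1 counterpart was lower in leaf with the replicate block (BnaA08g034610.3DH, adjusted p = 0.00142), which left 0 not called, and 2 were not called without the filter. With a replicate left out, 3 to 4 were higher, 0 to 1 lower and 1 to 3 not called. In N99, 1 was higher with no filter, after quantile normalization, after rescaling and without cotyledon replicate 2 (chosen after seeing the data), and 5 were not called with no filter. With a replicate left out, 0 to 2 were higher, 0 to 2 lower and 0 to 3 not called. In pennycress 1 was higher throughout, and 0 to 1 not called with a replicate left out. No counterpart that was tested with all 6 libraries changed direction in these settings. BnaC08g026930.3DH of DH12075, which averaged 0.834 TPM over the 6, did change. Its log2 fold change was -0.17 with no filter and 0.11 without replicate 3, where it passed the filter, and neither was called. The causes were not tested. The depth is unknown, so counting error near 0 to 3 TPM, where the rule lies, is not measured.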
